A study of Mus musculus with 6 samples.

Results

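The genes described here are 10 regulators of the G1 phase of the cell cycle: the D-type cyclins Ccnd1, Ccnd2 and Ccnd3, their partner kinases Cdk4 and Cdk6, and the kinase inhibitors Cdkn1a, Cdkn1b, Cdkn1c, Cdkn2a and Cdkn2c. They are named genes among 21887 protein-coding genes with a position in the RefSeq annotation of mouse build mm10, and were chosen with earlier results of these data known. Every open-chromatin peak in or within 20 kb of a gene span was taken. Overlapping peaks of the 6 samples were joined into regions, and 116 of the 62098 regions near any protein-coding gene lay at these 10 genes. The 10 gene windows held 80, 84 and 79 peaks in knockout samples 1, 2 and 3, against 98, 102 and 93 peaks in wild-type samples 1, 2 and 3.

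The peaks come from ATAC-seq, which marks accessible DNA by the insertion of adapters with a transposase, on bone marrow cells of C57BL/6 mice after removal of mature blood cells with a lineage depletion kit. What remains is lineage-negative marrow, rich in stem and progenitor cells of the blood. One group of 3 samples has the genotype UTX_KO and lacks Utx, also named Kdm6a, a demethylase of lysine on histone H3, and the other group of 3 samples is UTX_WT. The series' design text gives the genotype as Utx-/-, and the labels name no Cre driver, floxed allele, age or pooling and leave unsaid whether the samples of a genotype are different animals, so every p-value measures only the spread between these samples.

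In G1 a cell commits to another round of division or leaves the cycle. D-type cyclins bind CDK4 and CDK6, and the active kinases phosphorylate the retinoblastoma protein and release E2F factors, which switch on genes of DNA replication. The INK4 inhibitors, here Cdkn2a and Cdkn2c, bind CDK4 and CDK6 alone, while the CIP/KIP inhibitors Cdkn1a, Cdkn1b and Cdkn1c bind cyclin-kinase pairs. In blood, CDK6 is known for its part in the exit of stem cells from quiescence, and Cdkn1c and Cdkn2c are known for restraining the division of stem cells.

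The 4 promoters shown next are those at which the knockout and wild-type peaks are compared in most detail, at Cdkn2a and at both kinases. Each is 300 bases long, from 250 bases before to 50 after an annotated transcription start, as given by RefSeq for GRCm38.p6, the assembly also called mm10. Cdkn2a has an upstream start, which gives the transcript of the Arf protein, a stabiliser of p53, and a start 12427 bp downstream of it, which gives the Ink4a inhibitor. The upstream promoter lies at chr4:89294570-89294869 and the downstream one at chr4:89282143-89282442, both on the minus strand. The Cdk6 promoter lies at chr5:3343643-3343942 and the Cdk4 promoter at chr10:127063285-127063584, both on the plus strand. Capitals mark letters that match one of 10 motifs on either strand, and neighbouring matches that overlap run together.
Cdkn2a upstream start (Arf): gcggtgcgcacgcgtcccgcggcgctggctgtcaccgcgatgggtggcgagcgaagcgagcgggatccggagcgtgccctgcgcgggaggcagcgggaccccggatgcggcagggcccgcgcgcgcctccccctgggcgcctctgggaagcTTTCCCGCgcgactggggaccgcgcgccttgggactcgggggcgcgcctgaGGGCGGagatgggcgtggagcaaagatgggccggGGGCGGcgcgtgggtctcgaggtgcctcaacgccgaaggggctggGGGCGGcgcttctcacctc
Cdkn2a downstream start (Ink4a): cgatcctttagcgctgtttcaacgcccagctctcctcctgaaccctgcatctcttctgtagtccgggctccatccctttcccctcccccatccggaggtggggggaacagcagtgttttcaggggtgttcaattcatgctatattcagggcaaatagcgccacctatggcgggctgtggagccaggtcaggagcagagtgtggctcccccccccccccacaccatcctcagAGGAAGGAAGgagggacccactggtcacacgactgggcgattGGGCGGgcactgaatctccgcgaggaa
Cdk6: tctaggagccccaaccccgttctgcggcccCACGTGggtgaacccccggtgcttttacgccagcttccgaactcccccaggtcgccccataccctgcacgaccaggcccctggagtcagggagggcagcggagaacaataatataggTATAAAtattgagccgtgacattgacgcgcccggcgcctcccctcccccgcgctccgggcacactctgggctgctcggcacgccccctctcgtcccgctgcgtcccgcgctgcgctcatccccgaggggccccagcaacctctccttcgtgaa
Cdk4: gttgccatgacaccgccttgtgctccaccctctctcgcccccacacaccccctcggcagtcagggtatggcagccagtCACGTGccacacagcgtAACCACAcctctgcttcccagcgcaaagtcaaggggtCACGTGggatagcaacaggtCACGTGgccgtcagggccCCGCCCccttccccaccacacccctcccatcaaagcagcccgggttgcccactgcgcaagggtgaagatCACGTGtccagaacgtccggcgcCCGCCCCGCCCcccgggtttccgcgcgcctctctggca

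The Arf promoter was the richest of these in G and C, at 77.0%, with 45 CpG dinucleotides and an observed to expected CpG ratio of 1.04. The Ink4a promoter had 60.3% G and C, 12 CpG and a ratio of 0.442. Across all 32851 promoter windows the medians were 52.7%, 7 and 0.384. The E2F motif TTTCCCGC, present in 1.07% of all windows, stood once in the Arf promoter, at position -99 from the start, and in no other of the 11 windows of these genes. Also there were 3 GC boxes (GGGCGG, in 35.7% of all windows). The Ink4a promoter held a GC box and an overlapping pair of the ETS core AGGAAG, which 35.4% of all windows contain. The Cdk4 promoter held 4 copies of the E-box CACGTG. That hexamer reads the same on both strands, is bound by MYC among other factors, and is present in 7.15% of all windows, while only 8 windows (0.0244%) hold 4 or more copies. Cdk4 also had 3 GC boxes and 1 RUNX motif (TGTGGTT, in 5.27% of all windows), and Cdk6 had 1 E-box and 1 TATA motif (TATAAA, in 13.6%). The other motifs searched, with their shares of all windows, were the E2F forms TTTGGCGC (0.514%) and TTTCGCGC (0.323%), the GATA motif AGATAA (11.2%) and the ETS motif CCGGAAGT (3.89%), and none of them was in the windows of the 10 genes. The letters describe these windows and show no binding. The promoter table held 11 windows of 7 of the genes, and those of Ccnd1, Ccnd2 and Cdkn1c were not used here.

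Knockout lists were shorter throughout, which is the setting for every count below. They held 45260, 50249 and 44576 peaks in knockout samples 1, 2 and 3, against 57405, 57917 and 57622 in the wild-type samples, a difference between means of -19.0%. The lists carry no read counts or scores, so depth is unknown and presence and width of a peak were the measurements. At the 10 genes the mean number of peaks was 81 ± 2.65 in knockout and 97.7 ± 4.51 in wild type (SD, n = 3 each), a difference of -17.1%, close to that of the whole lists. Bases under peaks there came to 57506, 65071 and 55278 in knockout samples, against 73031, 72565 and 73612 in wild-type samples. That difference was -18.9%, and over the whole lists it was -15.6%. Every knockout sum lay below every wild-type sum in both measures.

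Markers of the labelled cells were open. The stem and progenitor genes Kit, Cd34, Flt3 and Gata2 had a peak within 1 kb of a gene end in all 6 samples. Of 4 granulocyte and monocyte genes Mpo, S100a8 and Csf1r had one in all 6, and Elane in 2 knockout and 3 wild-type samples. T-cell genes Cd3e, Cd4 and Cd8a had none, and of 4 genes of non-blood tissues only Col1a1 had one. Erythroid and B-cell markers moved with genotype. Bases under peaks in or within 20 kb of the erythroid genes Klf1, Hbb-bs and Hba-a1 ranged in sum from 3915 to 4498 bp in knockout and from 12835 to 15338 bp in wild-type samples, with no peak within 1 kb of an end of Hbb-bs or Hba-a1 in any knockout sample and one in each wild-type sample. Klf1 had such a peak in all 6 samples. For the B-cell genes Ms4a1 and Cd79a the range was 6431 to 7926 bp in knockout and 6020 to 6188 bp in wild type, with such a peak at Ms4a1 in 3 knockout and 1 wild-type samples and at Cd79a in all 6. The sums were also lower for the 4 stem and progenitor genes, at 13896 to 14648 bp in knockout and 17835 to 19744 bp in wild type, and for the 4 granulocyte and monocyte genes, at 13201 to 18788 bp in knockout and 20345 to 25132 bp in wild type. Knockout sums were below wild-type sums in the remaining lists too, at 2788 to 3087 bp in knockout and 3316 to 3474 bp in wild type for the 3 T-cell genes, and at 482 to 928 bp in knockout and 959 to 1095 bp in wild type for the 4 non-blood genes. Of the 6 lists, the B-cell one alone was higher in knockout. The part of these cell types in the results below was not tested, and in bulk cells fewer cells with an open site and less opening per cell cannot be told apart.

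Of the 116 regions at the 10 genes, 13 were lost in knockout cells, meaning a peak in all 3 wild-type samples and in no knockout sample. The share was 11.2%, against 10.7% of the 62098 regions near any gene. Gained regions, the reverse pattern, numbered 3 (2.59%), against 4.05% near any gene. A peak in all 6 samples was found at 60 regions (51.7%), against 42.9% near any gene, and the other 40 regions had mixed patterns. As a group, then, the 10 genes lost about the share of regions that genes in general lost. The losses were unevenly placed. Cdk6 and Ccnd3, singled out after their values were seen, have windows with 62 of the 116 regions and held 11 of the 13 losses, while the other 8 genes together lost 2 of 54 regions (3.70%).

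**Figure D1:**
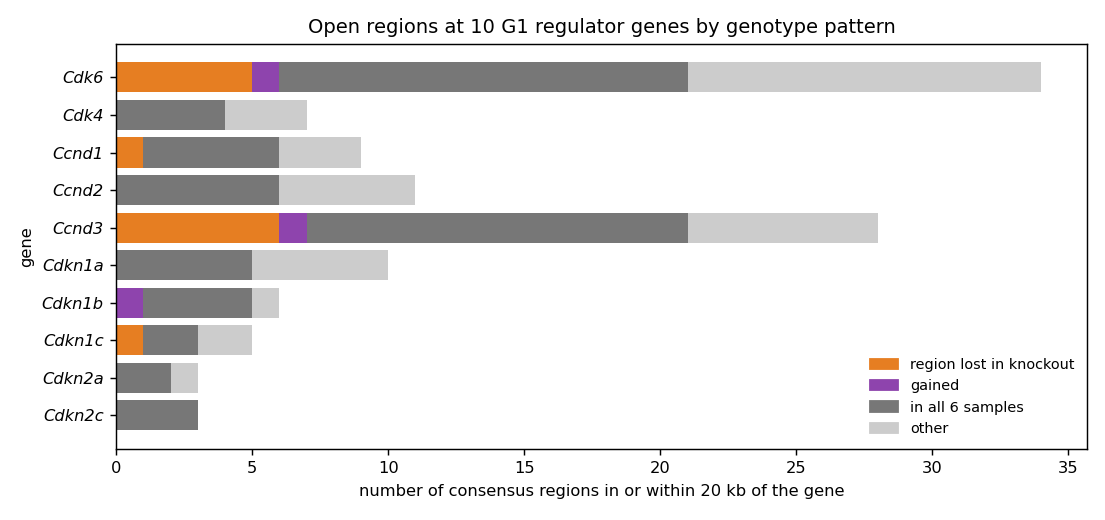
Number of regions in or within 20 kb of each gene (horizontal axis), divided by pattern: lost in knockout, gained in knockout, with a peak in all 6 samples, or any other pattern. Orange bars stand at Cdk6 (5), Ccnd3 (6), Ccnd1 (1) and Cdkn1c (1), and purple bars at Cdk6, Ccnd3 and Cdkn1b (1 each).

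None of the 13 lost regions held a known start of its own gene or lay within 1 kb of an end of that gene. No start of Ccnd1 or Cdkn1c was used, and starts of neighbouring genes were not searched. Of the 13, 10 lay inside the gene span and 3 outside it, at Ccnd1, Ccnd3 and Cdkn1c. Each of those 3 was nearer to another gene, and with the nearest gene alone 10 lost regions remained. The median width of the 13 was 536 bp, against 450 bp for all lost regions near genes. Regions with a peak in all 6 samples were wider, with a median of 930 bp, against 783 bp for all such regions near genes. A region joins the peaks of every sample that has one there, which by itself tends to widen regions found in more samples. Of the regions in all 6 samples, 8 overlapped a gene end and 8 held an annotated start of their gene. The latter count is a minimum, since no start of Ccnd1, Ccnd2 or Cdkn1c was used. Of the 11 promoter windows, 8 had bases under peaks in all 6 samples, and 36.0% of all windows did. None of the 11 windows, which belong to 7 of the genes, was open in all 3 samples of a single genotype alone. Among all windows 1.07% were open in wild-type samples alone and 0.591% in knockout samples alone. At those 7 genes the start-side regions were therefore present in both genotypes in most cases. The gains and losses at the 10 genes lay within and around the gene bodies.

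To compare genes, bases under peaks in each gene window were tested with limma on a log2 scale after adding 500 bp, with each sample centred on its median gene, over 15211 genes with a mean of at least 500 bp, and with Benjamini-Hochberg adjustment over all of them. A fold change on this scale is thus relative to the median gene, and adding 500 bp makes it smaller for genes with few bases. At an adjusted p of 0.05, 2 of the 10 genes were lower in knockout, Cdk6 and Cdkn1c, against 19.2% of all tested genes. Another 3 were higher, Cdkn1b, Cdkn2a and Cdkn2c, against 21.7%, and 5 did not pass. Genes called in either direction made up 40.9% of those tested, so 5 of 10 is near the general share. The median log2 fold change was 0.08 over the 10 genes and 0.03 over all tested genes. Without centring the median gene stood at -0.217, and the sign or call of 7 of the 10 genes depended on that choice, as given for each gene.

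**Figure D2:**
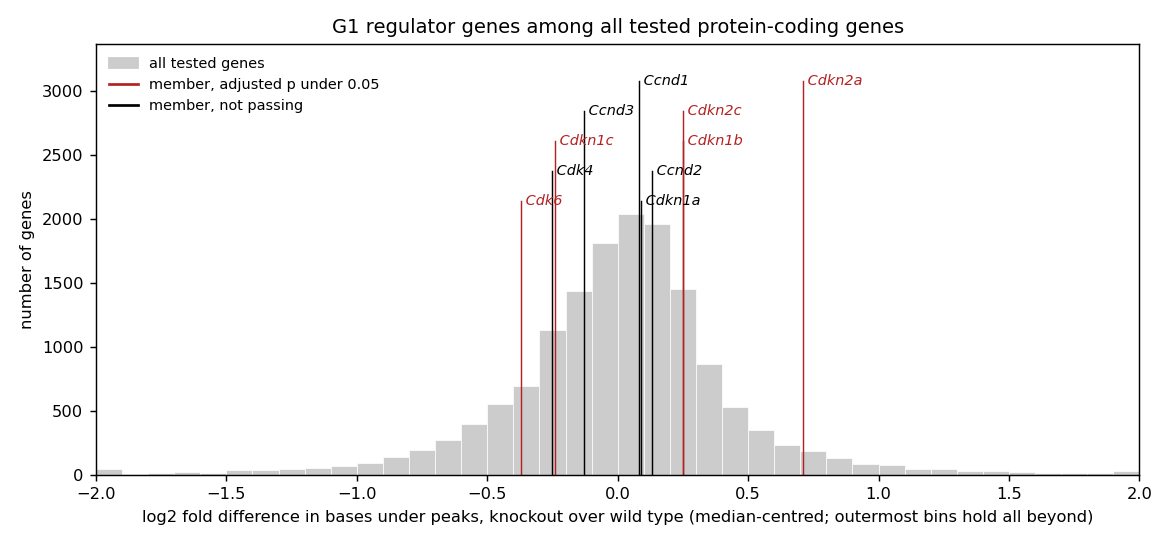
Histogram of the log2 fold difference in bases under peaks, knockout over wild type and centred on the median gene (horizontal axis), for 15211 genes (vertical axis, number of genes), with vertical lines for the 10 G1 regulators, whose heights are set for legibility. Cdkn2a at 0.71 stands far to the right and Cdk6 at -0.37 furthest to the left of the 10.

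Ccnd3 had the most lost regions of the D-type cyclins, 6 of 28. Cyclin D3 is the D cyclin known for the expansion of lymphoid and erythroid precursors. Its gene spans chr17:47505051-47599689 and carried 17, 19 and 19 peaks in knockout samples, against 22, 25 and 23 in wild-type samples. Each knockout sample had fewer peaks than each wild-type sample, and the exact permutation test (two-sided) gave p = 0.1, the lowest value that groups of 3 can reach. Over all genes with a peak, 27.6% separated in this direction and 4.24% in the other, and of the 10 genes Cdk6, Ccnd3 and Cdkn1c did so and none in the other direction. Bases under peaks at Ccnd3 were 11512, 13632 and 12487 in knockout samples, against 15928, 16279 and 17025 in wild-type samples, a ratio of means of 0.764. The groups did not overlap, as was the case in this direction for 49.4% of all genes and 3 of these 10. Relative to the median gene the log2 difference was -0.13 ± 0.072 (SE; limma, adjusted p = 0.175), and it passed without centring (-0.38, adjusted p = 0.00692).

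Of the lost Ccnd3 regions, 5 lay inside the gene, in the long stretch between its upstream and downstream annotated starts. The widest of them, chr17:47535606-47536456, was covered by 660, 729 and 822 bp of peaks in wild-type samples and by none in knockout samples. The regions at chr17:47526726-47527101 and chr17:47532399-47532762 were smaller, with mean coverage of 311 ± 63.1 bp and 281 ± 41.4 bp in wild type. Those at chr17:47568403-47568879 and chr17:47578593-47579128 averaged 402 ± 74.0 bp and 430 ± 103 bp in wild type. The remaining one, chr17:47617314-47618299, lay 17625 bp outside the gene and nearer to another gene, with Bysl, Gm20517, Med20 and Usp49 also within 20 kb. It was the widest lost region at the 10 genes, with 669, 939 and 967 bp in wild-type samples. Among these losses sat 1 gain, chr17:47553004-47553446, with 435, 436 and 408 bp in knockout samples and none in wild type. With the widest 50% of peaks, 2 regions at Ccnd3 were lost and none was gained. In the full lists the pattern along Ccnd3 was not one-sided, since a site present in all 3 knockout samples lay between lost sites inside the same gene.

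Neither Ccnd1 nor Ccnd2 passed the test. Ccnd1 (chr7:144929931-144939831), whose product links growth-factor signals to the cycle in many tissues, had 2827, 3477 and 3324 bp under peaks in knockout samples, against 4109, 3543 and 3305 bp in wild-type samples. These ranges overlap, and the log2 difference was 0.08 ± 0.10 (SE; limma, adjusted p = 0.543), negative at -0.16 without centring. One of its 9 regions was lost, chr7:144927615-144928151, which lies 1780 bp outside Ccnd1 and nearer to LTO1, and no region was gained. Ccnd2 (chr6:127125162-127152188), a D cyclin needed for the normal proliferation of B cells, had 6732, 7300 and 6249 bp in knockout samples, against 7691, 7292 and 7105 bp in wild-type samples. Its ranges overlap as well, with a log2 difference of 0.13 ± 0.074 (SE; limma, adjusted p = 0.195) that was -0.12 without centring. None of its 11 regions was lost or gained.

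Cdk6 had the lowest log2 difference of the 10 genes on the scale with 500 bp added, with and without centring, while its ratio of means, 0.647, was above the 0.608 of Cdkn1c, a gene with far fewer bases. The kinase gene spans chr5:3341004-3531008 and had 34 regions, of which 5 were lost, 1 was gained and 15 were present in all 6 samples. It carried 19, 21 and 21 peaks in knockout samples, against 28, 29 and 29 in wild-type samples (two-sided exact permutation p = 0.1, the smallest possible). Bases under peaks were 12423, 13803 and 10523 in knockout samples, against 18221, 18918 and 19654 in wild-type samples. The highest knockout sample lay well below the lowest wild-type sample. The centred log2 difference was -0.37 ± 0.086 (SE; limma, adjusted p = 0.00991), and 14.1% of tested genes had a lower value. Cdk6 passed under all 14 alternative settings, at -0.62 to -0.29.

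**Figure D3:**
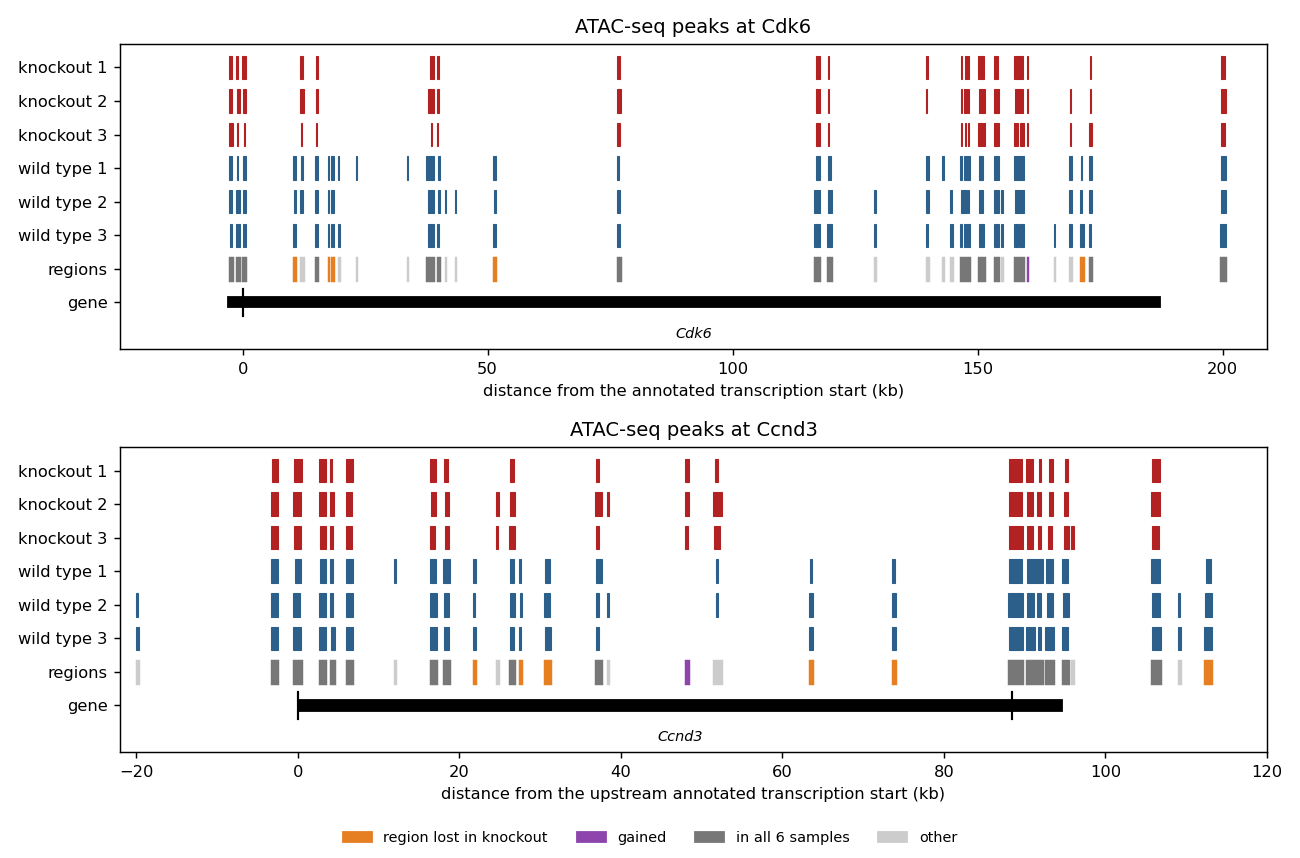
Peaks of each sample along Cdk6 and Ccnd3 (horizontal axis, distance in kb from the annotated start, or from the upstream one of Ccnd3), with 3 knockout rows above 3 wild-type rows, the joined regions coloured by pattern, and the gene span with ticks at annotated starts. Orange regions have peaks in the wild-type rows alone, 5 at Cdk6 and 6 at Ccnd3, and 1 purple region in each map has peaks in the knockout rows alone.

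The lost Cdk6 regions all lay inside the gene. Their centres were 10658, 17532, 18354, 51411 and 171262 bp past the annotated start. The first, chr5:3354211-3354890, had 680, 392 and 497 bp under wild-type peaks, and the third, chr5:3361979-3362515, had 494, 520 and 498 bp. The second, chr5:3361237-3361612, was narrower, at 204, 272 and 376 bp, and sits just before the third. The other lost regions, chr5:3395050-3395558 and chr5:3514771-3515538, averaged 442 ± 61.8 bp and 497 ± 252 bp in wild type. Toward the far end of the gene 1 region was gained, chr5:3503866-3504251, with 227, 386 and 248 bp under knockout peaks. The number of lost Cdk6 regions was 3 when all lists were cut to the same number of peaks, 8 without wild-type sample 1 and 9 when 2 of 3 samples sufficed for a call. The 1 gain was not called with the widest 50% of peaks. At the annotated start itself the region chr5:3343877-3344532 was present in every sample, with 619, 620 and 373 bp in knockout and 504, 641 and 581 bp in wild type, and did not pass (log2 width difference -0.07 ± 0.20, limma adjusted p = 0.843). Most of that region lies after the start: the promoter window printed above held 66, 39 and 0 bp of peaks in knockout samples and 0, 53 and 0 bp in wild-type samples.

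Regions present in all 6 samples can still differ in width, which was tested with limma over all 31159 such regions. Of the 60 at the 10 genes, 7 were narrower in knockout, against 7.11% of all, and 3 were wider, against 7.80%; either call was made for 14.9% of all. Every knockout width lay below every wild-type width at 11 regions and above at 9, against 27.7% and 11.9% of such regions near any gene. Narrowing was furthest at a region inside Cdk6, chr5:3463223-3464104, with 224, 335 and 304 bp in knockout samples, against 737, 808 and 882 bp in wild-type samples. Its log2 width difference was -1.45 ± 0.16 (SE; limma, adjusted p = 0.00132), and it passed in every alternative that could be fitted. Narrower too were 2 other Cdk6 regions, chr5:3490306-3492235 at -0.67 (limma, adjusted p = 0.0322) and chr5:3543427-3544591, which is also near Fam133b, at -0.34 (limma, adjusted p = 0.0472). Wider were 2 regions of the gene, chr5:3493981-3495287 at 0.42 (limma, adjusted p = 0.0256) and chr5:3420260-3421025 at 0.44 (limma, adjusted p = 0.0488). Those calls were less firm. The one at 3490306 was lost without any 1 wild-type sample or knockout sample 2 (adjusted p of 0.0697 to 0.203), and the one at 3493981 without wild-type sample 1 or 2 or knockout sample 1 or 3 (adjusted p of 0.0652 to 0.0830). The calls at 3543427 and 3420260 were lost whichever sample was left out (adjusted p of 0.0535 to 0.152 and 0.0529 to 0.119). Ccnd3 had 2 narrower regions. At chr17:47597624-47598709, near its far end, widths were 448, 488 and 512 bp in knockout samples, against 866, 748 and 1086 bp in wild-type samples (log2 difference -0.83 ± 0.15, limma adjusted p = 0.0104), and this call held in every alternative that could be fitted. At chr17:47523090-47523900 the log2 difference was -0.47 (limma, adjusted p = 0.0269), and the call was lost without wild-type sample 1 or 3 or knockout sample 2 or 3 (adjusted p of 0.0558 to 0.0806).

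Cdk4, the other kinase (chr10:127063535-127067288), lost no region. It had 3847, 5682 and 3597 bp under peaks in knockout samples, against 6338, 5657 and 6780 bp in wild-type samples. Knockout sample 2 lay within the wild-type range and the other two below it. The log2 difference of -0.25 ± 0.13 (SE) did not pass (limma, adjusted p = 0.156), and it passed without centring (-0.49, adjusted p = 0.0293) or without knockout sample 2 (-0.40, adjusted p = 0.0157). The promoter with the 4 E-boxes was covered over all 300 bases in every sample, inside a region of 1450 ± 153 bp of peaks in knockout and 1697 ± 381 bp in wild type (log2 width difference -0.15 ± 0.16, limma adjusted p = 0.580). Both of its narrower regions lay outside the gene in a dense neighbourhood. The region chr10:127069152-127071010 had 488, 1328 and 554 bp in knockout samples, against 1859, 1626 and 1604 bp in wild-type samples (log2 difference -1.19 ± 0.31, limma adjusted p = 0.0413), and the call was lost without any 1 sample other than knockout sample 2 (adjusted p of 0.0897 to 0.127). The region chr10:127058198-127058747 had 364, 315 and 320 bp in knockout samples, against 528, 550 and 512 bp in wild-type samples (log2 difference -0.61 ± 0.12, limma adjusted p = 0.0135). In the second the samples of a genotype were close together and the groups far apart, though without wild-type sample 2 its adjusted p was 0.0505. Agap2, Cyp27b1, Marchf9 and Tspan31 are within 20 kb of both regions, so neither can be assigned to Cdk4 alone.

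**Figure D4:**
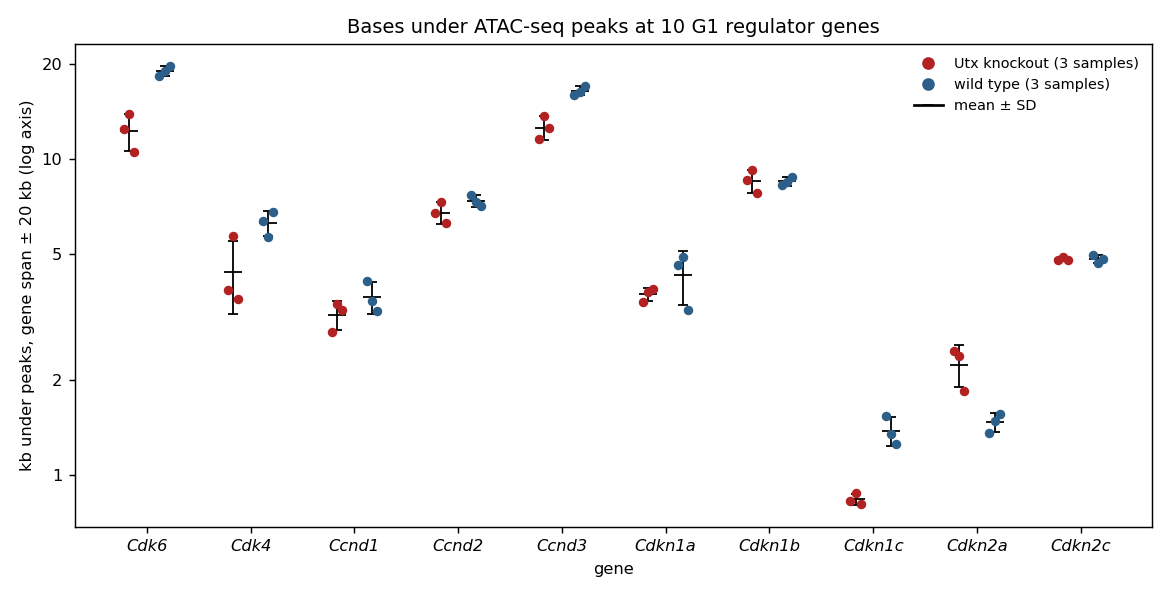
Bases under peaks in each gene span with 20 kb on either side (vertical axis, kb, log scale) for the 10 genes, as points for 3 knockout samples (left of each pair) and 3 wild-type samples (right), with the mean and SD. Knockout points lie below all wild-type points at Cdk6, Ccnd3 and Cdkn1c and above them at Cdkn2a.

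Among the CIP/KIP inhibitors, Cdkn1c, an imprinted gene whose product keeps stem cells quiescent, was lower in knockout cells. It spans chr7:143458339-143461059, and 832, 877 and 811 bp under peaks were found in knockout samples, against 1536, 1354 and 1252 bp in wild-type samples. The groups were well apart, with a ratio of means of 0.608, and peaks numbered 2 in each knockout sample against 4, 4 and 3 in wild type (two-sided exact permutation p = 0.1, the smallest possible). The log2 difference was -0.24 ± 0.083 (SE; limma, adjusted p = 0.048). That call rests on few bases and did not survive leaving out wild-type sample 1 or 2 or any 1 knockout sample (adjusted p of 0.0859 to 0.142). Neither region present in all 6 samples passed the width test, with 474 ± 21.5 bp in knockout and 491 ± 34.7 bp in wild type at the gene end (log2 difference 0.01, limma adjusted p = 0.964). Among the sites beyond the gene 1 region was lost, chr7:143473518-143473902, with 334 ± 25.8 bp in wild type. It lies 12459 bp from Cdkn1c and nearer to Slc22a18. The bases lost there therefore cannot be assigned to Cdkn1c, though they count in its window.

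Cdkn1a, the p53 target that arrests cells after DNA damage, did not pass. It spans chr17:29090979-29100722 and had 3535, 3805 and 3864 bp under peaks in knockout samples, against 4622, 4895 and 3324 bp in wild-type samples. Wild-type sample 3 lay below all knockout samples and the other two above them. The log2 difference was 0.09 ± 0.14 (SE; limma, adjusted p = 0.649) and turned to -0.08 without wild-type sample 3. Its upstream annotated promoter had no base under a peak in any sample, whereas the one 2.79 kb further on had 266, 300 and 241 bp in knockout and 233, 253 and 239 bp in wild type.

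Cdkn1b, which holds resting cells out of the cycle, spans chr6:134920401-134925525. Bases under peaks were 8549, 9199 and 7774 in knockout samples, against 8245, 8446 and 8787 in wild-type samples. The ranges overlap fully and the means were nearly equal, at 8507 ± 713 bp in knockout and 8493 ± 274 bp in wild type. Since the median gene was lower in knockout, Cdkn1b was higher relative to it, by 0.25 ± 0.069 on the log2 scale (SE; limma, adjusted p = 0.023), and without centring the difference was -2.4e-04 (adjusted p = 0.998). The call was also lost without wild-type sample 1 or 2 or knockout sample 1 or 2 (adjusted p of 0.0584 to 0.0657). One region was gained, chr6:134925747-134926058, only 222 bp past the gene, with 256, 285 and 309 bp under knockout peaks. It lies between the broad region over the gene's start, 3330 ± 420 bp in knockout and 3310 ± 63.8 bp in wild type, and another broad region downstream, 3282 ± 246 bp in knockout and 3800 ± 285 bp in wild type.

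The INK4 gene Cdkn2a had the largest relative increase of the 10 genes. It spans chr4:89274473-89294619, and peaks covered 2473, 2385 and 1852 bp in knockout samples, against 1364, 1487 and 1565 bp in wild-type samples. Each knockout sample exceeded each wild-type sample, which held in this direction for 9.90% of all genes, and the ratio of means was 1.52. The log2 difference was 0.71 ± 0.093 (SE; limma, adjusted p = 6.55e-04), and 95.5% of tested genes had a lower value. It was positive and passed under all 14 alternative settings, at 0.45 to 0.85, including without centring (0.47, adjusted p = 0.00724).

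The largest part of that difference lay at the Arf start. The region chr4:89294532-89295700, present in all 6 samples, measured 1169, 1116 and 938 bp in knockout samples, against 644, 634 and 726 bp in wild-type samples. Every knockout peak was wider than every wild-type peak, and the ratio of means was 1.61. The log2 width difference was 0.74 ± 0.11 (SE; limma, adjusted p = 0.00475), and it passed in each of the 11 alternatives run on widths. Counted along the gene from the Arf start, the upstream edges of the peaks lay at -1.081, -1.069 and -0.899 kb in knockout samples, against -0.751, -0.703 and -0.654 kb in wild-type samples. Of the 300 bases of the printed Arf promoter, peaks covered 300, 297 and 289 in knockout samples, against 143, 181 and 300 in wild-type samples. The peaks of wild-type samples 1 and 2 ended before the start, at -0.108 and -0.07 kb, while those of wild-type sample 3 and of all knockout samples crossed it.

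At the Ink4a start a small region, chr4:89282155-89282502, had a peak of 347 bp in knockout sample 1 and of 311 bp in knockout sample 2, and none in knockout sample 3 or in any wild-type sample. Peaks covered 287, 288 and 0 bases of the printed Ink4a promoter in knockout samples 1, 2 and 3. Being absent from 1 knockout sample, the site is not among the gained regions, and its bases under peaks did not pass an exact permutation test (two-sided p = 0.40). The remaining region in the Cdkn2a window, chr4:89310364-89311369, covers the start of the neighbouring INK4 gene Cdkn2b, with 957, 958 and 914 bp in knockout samples, against 720, 853 and 839 bp in wild-type samples (log2 difference 0.29 ± 0.10, limma adjusted p = 0.0937). The groups did not overlap there, yet the difference did not pass. All 3 regions of the locus were thus either wider in every knockout sample or present in knockout samples alone, and none was narrower.

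**Figure D5:**
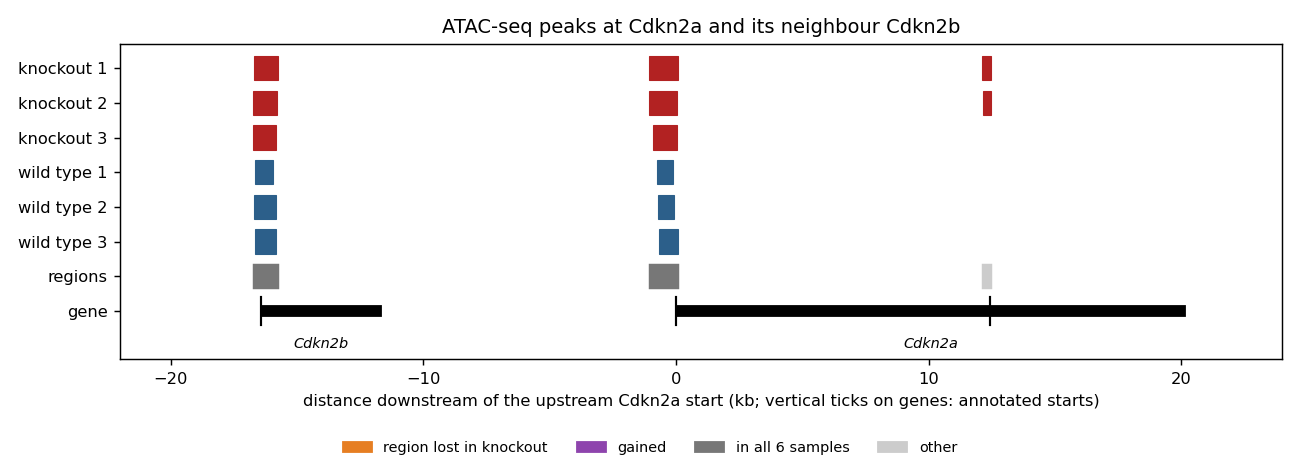
Peaks of each sample at Cdkn2a and Cdkn2b (horizontal axis, distance in kb downstream of the Arf start), with 3 knockout rows above 3 wild-type rows, the joined regions, and the gene spans with ticks at annotated starts. Knockout peaks at 0 are wider than wild-type ones (1169, 1116 and 938 bp against 644, 634 and 726 bp), and the site at the Ink4a start, 12.427 kb downstream, has peaks in knockout rows 1 and 2 alone.

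Cdkn2c, an INK4 gene with a role in stem cell self-renewal and plasma cells, had the same 3 regions in all samples. It spans chr4:109660876-109666756 and had 4776, 4911 and 4797 bp under peaks in knockout samples, against 4977, 4694 and 4815 bp in wild-type samples. These values are the most even of the 10 genes. Relative to the lower median gene in knockout the log2 difference was 0.25 ± 0.069 (SE; limma, adjusted p = 0.0216), and without centring it was 7.1e-05 (adjusted p = 1). Leaving out wild-type sample 2 or 3 or knockout sample 1 or 3 ended the call (adjusted p of 0.0510 to 0.0674).

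Set beside one another, Cdk6 was the only one of the 10 genes called lower at an adjusted p of 0.05 (limma), and Cdkn2a the only one called higher, both with and without centring and in all 14 alternatives on bases. Cdk4 and Ccnd3 had negative log2 differences in all 14 as well, at -0.49 to -0.16 and -0.38 to -0.09, and neither passed in the centred fit of all 6 samples. Sums over windows of unequal length are not compared between genes.

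Other genes of the G1/S pathway, 39 in 6 lists, had 278 regions, of which 31 were lost (11.2%) and 6 gained (2.16%). Near any gene 10.7% of regions were lost and 4.05% gained, so the lost share of these lists was close to the general one. By bases under peaks 8 were lower, 4 higher and 27 did not pass, with a median log2 difference of 0.01, against 19.2% lower and 21.7% higher of all tested genes. Without centring 16 were lower and 1, Cdkn2b, was higher, with a median of -0.24, against 43.2% lower and 7.68% higher of all tested genes. The 8 genes that passed as lower in that fit alone were Ccne1, Cdc25a, E2f8, Fbxw7, Mcm2, Mcm3, Mcm5 and Cdt1. Of 13 pocket protein and E2F genes 2 were lower and 1 higher. E2f4, an E2F that acts mainly as a repressor with pocket proteins and is needed for red cell formation, had 3416 ± 200 bp in knockout and 8208 ± 1154 bp in wild type (SD, n = 3 each; limma log2 difference -0.90, adjusted p = 3.51e-04), with 5 of 13 regions lost. Of these losses only chr8:105298644-105300466 lay inside E2f4, and whether the others belong to it or to a neighbouring gene was not tested. Rbl1, a pocket protein gene, was lower by a log2 difference of -0.30 (limma, adjusted p = 0.0315), and E2f5 was higher at 0.41 (limma, adjusted p = 0.00417), a call lost without centring (0.16, adjusted p = 0.120). E2f8 had 3 lost and 1 gained of 12 regions, Rb1 2 lost and 1 gained of 19, and Tfdp2 2 lost and 1 gained of 9, and none of these 3 passed the centred test on bases, though E2f8 passed without centring (-0.47, limma adjusted p = 0.00754).

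Of the 3 genes of the p53 axis only Trp53 was called. It had 2057 ± 312 bp under peaks in knockout and 4768 ± 302 bp in wild type (SD, n = 3 each; limma log2 difference -0.80, adjusted p = 3.76e-04), with 1 of 6 regions lost. Among 9 licensing genes, which prepare origins of replication, Cdc6 was lower at -0.56 (limma, adjusted p = 0.00175) with 2 lost regions, and Mcm6 at -0.36 (limma, adjusted p = 0.0164) with 1 lost and 1 gained, as was the case for Mcm2, which passed without centring alone (-0.43, limma adjusted p = 0.00165). Of 7 genes for turnover of G1 regulators 3 were lower and 2 higher. Ambra1, which directs the degradation of D-type cyclins, was lower at -0.62 (limma, adjusted p = 0.0027) with 3 of 14 regions lost. Fbxo31, another receptor for cyclin D1 degradation, was lower at -0.33 (limma, adjusted p = 0.0101) and Cks1b, a cofactor in the degradation of the Cdkn1b protein, at -0.32 (limma, adjusted p = 0.029), each with 2 lost regions. Both lost Cks1b regions lay outside the gene. The ligase subunit genes Skp1 and Cul1 were higher at 0.33 (limma, adjusted p = 0.0216) and 0.21 (limma, adjusted p = 0.0331), and without centring neither passed, at 0.09 and -0.03. None of the 5 genes of the cyclin E and CDK2 group passed in the centred fit, while without centring Ccne1 (-0.42, limma adjusted p = 0.00245) and Cdc25a (-0.48, limma adjusted p = 0.00610) were lower, and Ccne1 and Ccna2 lost 1 region each. Of the other inhibitors Cdkn2b, whose window shares both of its regions with Cdkn2a, was higher, with 2017 ± 146 bp in knockout and 1472 ± 101 bp in wild type (SD, n = 3 each; limma log2 difference 0.60, adjusted p = 5.06e-04), and Cdkn2d did not pass.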

How the data were processed

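Each of the 6 deposited files, made by the authors from 1 sample, holds peak coordinates (chromosome, start and end, with no score, signal or read count); positions were read as BED coordinates and are printed counting from 1. Peaks were called with MACS2 on mm10, per the submitters' processing notes; no version is stated, and file labels show a p threshold. Not given in the sources used here are the aligner, read filters, shift of insertion sites and handling of duplicates. Depth is therefore unknown, and a longer list may come from more open sites or from a deeper or cleaner library.

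Peaks sharing at least 1 bp were joined into regions. Genes and promoters came from RefSeq (GRCm38.p6), with Skp1a matched as Skp1. A two-sided exact permutation test compared peaks per gene. Bases under peaks per gene and widths in regions present in all 6 samples were compared with limma 3.58.1 (R 4.3.3) at an adjusted p of 0.05. On simulated data with 200 changed features, the test on bases recovered 66.5% of 1.5-fold and 90% of 2-fold changes. False calls made up 6.99% and 4.76% of its calls. The width test recovered 0% of 1.5-fold and 70.5% of 2-fold changes, so a width difference that did not pass is not shown to be absent. The simulation changed 200 of 15211 genes and 200 of 31159 widths, while 40.9% and 14.9% were called in the data. The adjusted p depends on that share, so these rates need not hold in the data. Some width differences below 1.5-fold did pass there, such as 0.42 on the log2 scale at Cdk6. Tables were made with Python 3.11.15, numpy 2.4.6, pandas 2.3.3 and scipy 1.17.1. Named were all 10 genes, each lost or gained region, each width call, and, of 39 other G1/S genes, those called and up to 3 per list with most lost and gained regions, ties included. The genes, lists and tests were chosen with earlier results of these data known, and the motifs afterwards. Alternatives left out each sample, equalised list lengths, kept the widest 50% of peaks, required 50% cover of a region or 2 of 3 samples, used the nearest gene alone, other pseudocounts, no filter, no centring or a replicate block. Some marker genes are not reported here and are left out of the marker sums.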

Additional observations from a re-analysis of the deposited data

How the results depend on the processing

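Cdk6 and Cdkn2a kept direction and call in all 14 alternatives on bases. The 13 lost and 3 gained regions became 7 and 0 with the widest 50% of peaks, where 3 and 0 of the original regions remained. With that setting 8.97% of regions at the 10 genes were lost, against 10.5% near any gene, and 3.97% near any gene were gained. With 2 of 3 samples sufficing the counts were 23 and 5, and leaving out samples gave 13 to 19 lost and 3 to 4 gained. Both of these settings relax the rule for a call, so they could hardly remove one. Using the nearest gene alone kept 10 of the 13 lost and all 3 gained regions. Without wild-type sample 1 the lost share was 17.3% at the 10 genes, against 14.2% near any gene. When all lists were cut to their widest 44576 peaks, 9 of the 13 lost and all 3 gained regions kept their call. The lost share was then 8.74% at the 10 genes, against 7.43% near any gene. The difference in mean peak number at the 10 genes moved to -10.0 peaks, against -16.7 peaks with the full lists (leaving out samples, -19.0 to -14.5 peaks). The 2 genes called lower became 1 with equal list lengths, the widest 50%, 50% cover or no filter, 4 without centring and 1 to 2 on leaving out samples. The 3 called higher became 1 with equal list lengths or without centring, and 1 to 2 on leaving out samples. The 7 narrower regions became 2 with the widest 50% or 50% cover, and 4 to 7 on leaving out samples; the 3 wider ones became 1 to 2.

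Without centring the log2 difference reversed at Ccnd1 (-0.16), Ccnd2 (-0.12), Cdkn1a (-0.16) and Cdkn1b (-2.4e-04). It also reversed with the widest 50% at Ccnd1 (-0.04) and Cdkn1c (0.04), and without wild-type sample 3 at Cdkn1a (-0.08; leaving out samples, -0.08 to 0.19). Without centring 6574 genes were lower and 1168 higher, against 2919 and 3300. Of all widths, 2215 were narrower and 2430 wider, against 752 and 1034 with the widest 50% and 988 and 1171 with 50% cover; leaving out samples gave 1337 to 1916 narrower and 1616 to 2069 wider. The cause of these changes was not tested.

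Samples of the same number did not visibly deviate together (correlations over genes of -0.054, 0.034 and 0.020). For samples of unlike number the range was -0.111 to 0.091. These values cannot tell whether samples of a number were handled as pairs. With a replicate block 1 gene of the 10, Cdk6, was lower (adjusted p = 0.0197), and 2 were higher, Cdkn2a and Cdkn2c. Unknown depth limits every absence of a peak.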
